A study of Homo sapiens with 12 samples.

Results

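The genes described here are the well expressed members of the ZNF family, which encodes proteins with zinc fingers of the C2H2 type. They were chosen by symbol (ZNF followed by a number and at most 1 letter) and by level. The mean had to be at least 300 normalised counts over all 12 libraries. This rule uses no contrast between groups, but the genes were chosen with earlier results of these data known. The rule gave 296 genes of the 553 such ZNF symbols, among 35984 gene symbols in the table. The mean normalised count of the 296 genes ran from 301.9 to 10930.9, with a median of 820.5. Just inside the threshold lay ZNF585A (306.7), ZNF853 (302.3) and ZNF460 (301.9), and just outside it ZNF333 (289.8), ZNF852 (287.7) and ZNF613 (287.5).

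Total RNA was sequenced from HepG2, an established human hepatoma line, in 4 groups of 3 libraries. Double knock-down cells (DKD) carried integrated retroviral pRetroSUPER cassettes with shRNAs against both macroH2A1 and macroH2A2, and control cells (CTL) carried cassettes with control shRNAs. All cells were kept overnight in low serum, and each line then received either TNFα at 20 ng/mL or an equal volume of the vehicle (PBS with BSA; untreated) for 24 hours. The 4 groups are therefore DKD with TNFα, DKD untreated, CTL with TNFα and CTL untreated. Separate cultures are not mentioned in the labels, and the p-values below therefore reflect the scatter among libraries of a group, which could be purely technical. Nor is it stated if each line was 1 pool or 1 clone, so a difference between the lines cannot be told apart from an effect of the knock-down. In these bulk samples, fewer cells of a type and less RNA per cell cannot be told apart either.

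C2H2 zinc fingers let a protein read DNA sequence, and the family has expanded by duplication in tandem clusters, most of them on chromosome 19. Many members also carry a KRAB box, which recruits TRIM28 (KAP1) and through it SETDB1, HP1 proteins and the repressive histone mark H3K9me3, and this machinery silences transposable elements and covers parts of the ZNF clusters themselves. ZNF274 is known to bring SETDB1 to the 3′ ends of other ZNF genes. MacroH2A1 and macroH2A2 are histone H2A variants with a large additional domain that are commonly found in silent chromatin.

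Of the 296 genes, 134 lay on chromosome 19, 23 on chromosome 7, 18 on chromosome 16 and 16 on chromosome 1 (GRCh38, GENCODE annotation). Clusters, defined as runs of ZNF symbols whose neighbouring starts lie within 250 kb, held 212 of the 296. A pattern search of the longest coding sequence found a KRAB box in 169 genes and none in 122, and 5 genes had no coding transcript. The median number of C2H2 fingers was 10. The pattern stands in for a domain annotation and can miss diverged boxes.

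Per kilobase of longest transcript, the mean level over the 12 libraries ran from 0.898 to 45.6 CPM per kb, with a median of 4.70. The highest levels belonged to ZNF664 (45.6 CPM per kb), ZNF146 (38.2), ZNF512B (25.2), ZNF410 (22.9) and ZNF217 (22.5). None of these 5 has a KRAB match.

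Promoters of 5 genes that were higher in knock-down cells in both treatments are shown here because these genes stand for the 3 clusters with the highest medians below. Each runs from 250 bases before to 50 bases after the start in RefSeq (GRCh38.p14) and is written 5′ to 3′ along the gene. Capitals mark the GC box GGGCGG and the ETS core CCGGAAG, found on either strand, which do not overlap each other in these sequences. ZNF134, ZNF274 and ZNF776 lie in 1 cluster near the end of chromosome 19, ZNF227 in another, and ZNF140 in the cluster at the end of chromosome 12.
ZNF134 (chr19:57613992-57614291, plus strand): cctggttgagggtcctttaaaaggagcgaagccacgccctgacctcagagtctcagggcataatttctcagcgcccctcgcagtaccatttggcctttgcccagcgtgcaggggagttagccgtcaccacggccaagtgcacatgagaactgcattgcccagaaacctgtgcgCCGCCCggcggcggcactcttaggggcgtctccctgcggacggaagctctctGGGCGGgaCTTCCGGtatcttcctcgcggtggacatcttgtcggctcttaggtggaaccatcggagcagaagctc
ZNF274 (chr19:58182811-58183110, plus strand): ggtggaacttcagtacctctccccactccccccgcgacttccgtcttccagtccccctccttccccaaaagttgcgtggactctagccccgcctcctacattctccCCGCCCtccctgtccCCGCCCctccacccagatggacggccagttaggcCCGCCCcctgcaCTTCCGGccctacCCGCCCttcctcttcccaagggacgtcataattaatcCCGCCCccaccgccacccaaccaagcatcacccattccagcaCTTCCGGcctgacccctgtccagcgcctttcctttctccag
ZNF776 (chr19:57746565-57746864, plus strand): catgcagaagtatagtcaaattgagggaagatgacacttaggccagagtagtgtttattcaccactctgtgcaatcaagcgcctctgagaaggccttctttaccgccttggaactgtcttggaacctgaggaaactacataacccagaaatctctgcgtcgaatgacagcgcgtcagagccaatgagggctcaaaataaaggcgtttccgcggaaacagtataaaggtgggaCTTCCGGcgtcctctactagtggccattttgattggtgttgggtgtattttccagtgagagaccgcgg
ZNF227 (chr19:44212282-44212581, plus strand): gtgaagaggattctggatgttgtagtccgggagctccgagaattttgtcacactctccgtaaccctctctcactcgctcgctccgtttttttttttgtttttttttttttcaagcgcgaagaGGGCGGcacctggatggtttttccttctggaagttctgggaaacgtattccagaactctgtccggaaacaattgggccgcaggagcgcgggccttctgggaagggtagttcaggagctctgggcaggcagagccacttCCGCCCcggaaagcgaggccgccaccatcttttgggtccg
ZNF140 (chr12:133080673-133080972, plus strand): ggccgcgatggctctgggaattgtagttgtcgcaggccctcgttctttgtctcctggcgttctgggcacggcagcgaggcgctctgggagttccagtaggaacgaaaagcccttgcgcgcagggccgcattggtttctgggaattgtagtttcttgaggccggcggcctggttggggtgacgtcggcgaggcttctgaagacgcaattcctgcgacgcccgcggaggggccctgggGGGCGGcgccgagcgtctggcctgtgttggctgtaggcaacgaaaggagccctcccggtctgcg

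The ETS core was found in 3 of these 5 promoters, at bases 234 to 240 in ZNF134, 168 to 174 and 260 to 266 in ZNF274, and 233 to 239 in ZNF776. RefSeq promoters were matched for 207 of the 296 genes. The ETS core stood in 42.0% of them, against 20.1% of the 7859 matched promoters of all genes tested and 10.7% of all 22114 promoters kept. It was found in 47.3% of the 129 matched promoters of genes with a KRAB match and in 33.3% of the 78 without. The GC box stood in 71.0% of the 207, against 69.5% of genes tested and 43.0% of all promoters.

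Other motifs searched were the NRF1 motif (11.6% of the 207, against 12.04% of genes tested), the YY1 motif AAGATGGCG (5.31% against 4.17%), the E-box CACGTG (6.28% against 9.99%) and the NF-kB motif (3.87% against 2.23%). Among the matched promoters of genes that were higher in knock-down cells (34 genes, below), the ETS core stood in 38.2% and the GC box in 61.8%. In the 173 other matched promoters these shares were 42.8% and 72.8%. These are counts of letters in a window and show no binding.

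Library depth ran from 30955080 to 42094144 counts, and the 296 genes took 0.831% to 0.988% of them. Both targeted transcripts were called lower in the knock-down in either treatment: MACROH2A1 had 32.4 to 63.5 CPM (counts scaled to the effective library size) in knock-down cells and 205 to 279 CPM in control cells, and MACROH2A2 3.28 to 6.01 CPM in knock-down cells and 41.0 to 60.4 CPM in control cells. All 8 hepatocyte markers were detected. Their summed levels did not overlap between the lines, at 20920 to 27210 CPM in DKD with TNFα against 17730 to 19570 CPM in CTL with TNFα, and 27710 to 39400 CPM in DKD untreated against 22240 to 23870 CPM in CTL untreated. The 14 markers of blood, endothelial and stromal cells summed to 48.3 to 55.5 CPM in DKD with TNFα against 39.5 to 40.6 CPM in CTL with TNFα, and to 35.2 to 46.0 CPM in DKD untreated against 37.4 to 41.6 CPM in CTL untreated, of which ACTA2 made up most. CD3E was at 0 in every library. The part of these differences in the results below was not tested.

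Libraries with replicate number 1 stood apart in the knock-down. On the first principal component of all genes (33.0% of the variance), DKD untreated replicate 1 lay at -83.7 and DKD with TNFα replicate 1 at -53.9, against -18.2 to 41.5 in the other 10 libraries. Many results are therefore also given without replicate 1 of every group. The tests used edgeR on the counts of all 12 libraries, with no replicate block unless one is named. They covered 16118 genes, all 296 ZNF genes among them. Unless stated otherwise, a gene is called at an adjusted p under 0.05 over the 16118 genes, and changes are log2 fold changes with their standard errors (SE).

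More ZNF genes were higher than lower in knock-down cells, and most of the higher ones were KRAB genes in the clusters of chromosome 19. Averaged over both treatments, 44 of the 296 were called higher and 7 lower in DKD than in CTL. Over all genes tested, 8.49% were called higher and 6.04% lower (14.5% in either direction). The median log2 fold change was 0.08 over the 296 genes and 0.01 over all genes tested, so the middle of the family lay close to no difference. With replicate number as a block, 71 were called higher and 23 lower, against 15.8% and 15.4% of all genes. Without replicate 1 of every group, 53 were higher and 26 lower, against 13.7% and 11.7%, and the median was 0.03.

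**Figure D1:**
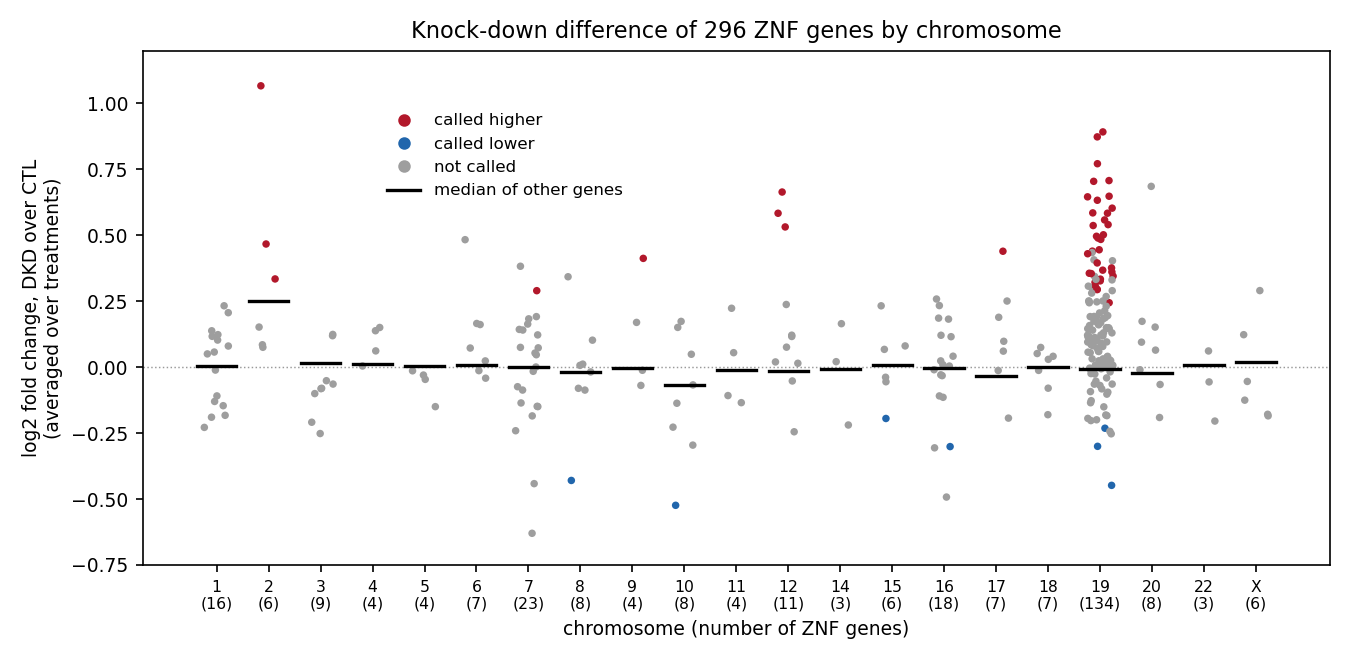
Log2 fold change of DKD over CTL, averaged over treatments (y axis), for each of the 296 ZNF genes (points), by chromosome (x axis, number of ZNF genes in brackets). Red points were called higher, blue lower and grey neither; the black line is the median of the other genes tested on that chromosome. Of the 44 genes called higher, 35 are on chromosome 19, where the other genes have a median of -0.01. These other genes include ZNF genes below the threshold.

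On chromosome 19, 35 of 134 ZNF genes (26.1%) were called higher and 3 lower, with a median log2 fold change of 0.15. The 985 other genes tested on that chromosome had a median of -0.01, with 64 called higher (6.497%) and 49 lower. They include ZNF genes below the threshold. Off chromosome 19, 9 of 162 ZNF genes were higher and 4 lower, with a median of 0.02. With the replicate block, the counts were 49 higher and 6 lower on chromosome 19 and 22 and 17 off it. The chromosome 19 count without replicate 1 was 37 higher and 12 lower, with a median of 0.09. Off chromosome 19 it was 16 higher and 14 lower, with a median of -0.01.

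The KRAB match and the chromosome went together. Of the 169 genes with a KRAB match, 40 were higher and 2 lower (median log2 fold change 0.13), and of the 122 without one, 3 were higher and 5 lower (median 0.02). The 114 KRAB genes on chromosome 19 had 33 higher and 2 lower (median 0.16), whereas the 18 genes there without a match had 1 higher and 1 lower (median -0.04). The 55 KRAB genes on other chromosomes had 7 higher and 0 lower (median 0.02). Without replicate 1, the KRAB genes had 43 higher and 14 lower (median 0.07), and those without a match 9 and 12 (median -0.01). In that fit the KRAB genes on chromosome 19 had 35 and 10 (median 0.11). Those on other chromosomes had 8 and 4 (median 0.01). Blocking on the replicate number gave 54 higher and 7 lower with a match, and 15 and 16 without one.

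Genes with more fingers were called higher more often, without a test of the trend. The finger groups were not split by KRAB match or chromosome. Of those with 14 or more fingers, 17 of 79 were higher (21.5%, against 8.49% of all genes tested) and 2 lower (2.53%, against 6.04%). The counts were 22 higher (15.2%) and 2 lower among 145 genes with 7 to 13 fingers, and 4 (5.97%) and 3 among 67 genes with 0 to 6. The blocked counts were 24 and 5, 33 and 6, and 12 and 12, against 15.8% and 15.4% of all genes. Without replicate 1 they were 18 and 6, 26 and 12, and 8 and 8, against 13.7% and 11.7%. Inside clusters, 42 of 212 genes were higher and 4 lower, and outside clusters 2 of 84 were higher and 3 lower. With the block these were 59 and 14 inside and 12 and 9 outside.

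Transcript composition differed between the genes and the rest of the table. The 44 genes called higher had a median GC content of 42.2% in the longest transcript, the 296 genes 43.1% and all genes tested with a transcript 48.3%. Within the bin of 40% to 45% GC, the median log2 fold change was 0.12 for 98 ZNF genes and 0.02 for 3194 other genes. Within 45% to 50% it was 0.12 for 49 ZNF genes and 0.02 for 2622 others. Under 40% it was 0.08 for 79 ZNF genes and 0.01 for 2287 others. From 50% to 55% it was -0.01 for 26 ZNF genes and 0.004 for 2321 others. Above 55% it was -0.04 for 44 ZNF genes and -0.02 for 4259 others.

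The largest group of called genes lay in the cluster at the end of the long arm of chromosome 19 (57191500 to 58481230, written 19M here). There 10 of 24 ZNF genes were higher and 0 lower, 23 of 24 fold changes were above 0, and the median log2 fold change was 0.28. The 9 tested genes without a zinc-finger symbol inside the same interval had a median of 0.01, with 2 called higher. Without replicate 1, the cluster had 14 genes higher, 0 lower and a median of 0.24.

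ZNF134 (ENSG00000213762, 57614233 to 57624723, plus strand), a finger gene with no KRAB match, had the smallest adjusted p of the 296 genes in the averaged knock-down comparison. Its level was 30.99, 31.04 and 30.02 CPM in DKD with TNFα, against 22.2, 24.4 and 22.1 CPM in CTL with TNFα. Without TNFα it was 33.5, 30.5 and 30.9 CPM in DKD, against 21.7, 22.4 and 20.9 CPM in CTL. All 6 knock-down libraries lay above all 6 control libraries, and the averaged log2 fold change was 0.48 (SE 0.058, adjusted p = 0.000263).

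ZNF274 (ENSG00000171606, 58183029 to 58213562, plus strand), the gene named above for bringing SETDB1 to ZNF genes, had 26.1, 30.8 and 28.1 CPM in DKD with TNFα, against 15.3, 20.4 and 17.1 CPM in CTL with TNFα. In untreated cells it had 36.9, 26.2 and 24.7 CPM in DKD, against 15.8, 18.1 and 14.6 CPM in CTL. The groups did not overlap, and DKD untreated replicate 1 was the highest library. The averaged log2 fold change was 0.77 (SE 0.12, adjusted p = 0.00129).

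ZNF776 (ENSG00000152443, 57746796 to 57758159, plus strand), a KRAB gene, had 41.6, 36.4 and 32.2 CPM in DKD with TNFα, against 24.5, 25.2 and 24.4 CPM in CTL with TNFα. Without TNFα its levels were 47.3, 37.7 and 39.4 CPM in DKD, against 25.6, 27.8 and 28.8 CPM in CTL. Again no knock-down library was as low as a control library, and the averaged log2 fold change was 0.59 (SE 0.083, adjusted p = 0.000725). ZNF550, another KRAB gene of the cluster, had 24.7, 19.2 and 17.9 CPM in DKD with TNFα, against 12.98, 13.2 and 11.8 CPM in CTL with TNFα, and 24.6, 19.7 and 19.1 CPM in DKD untreated, against 11.8, 13.6 and 13.4 CPM in CTL untreated, again without overlap. The 7 called genes other than ZNF134, ZNF274 and ZNF776 were ZNF550 (0.70), ZNF419 (0.65), ZNF552 (0.60), ZNF549 (0.58), ZNF772 (0.36), ZNF417 (0.33) and ZNF17 (0.24).

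Over the 12 libraries, the ZNF genes whose log2 level ran most like that of ZNF134 were ZNF542P (Pearson r = 0.974), ZNF274 (0.964) and ZNF419 (0.960). For ZNF227 they were ZNF226 (0.959), ZNF45 (0.941) and ZNF134 (0.932), of which ZNF226 and ZNF45 lie in the same cluster as ZNF227. These are descriptions over libraries that share the group differences.

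Some of these values cannot be assigned to 1 gene with certainty, since the strand setting of the counting is not given in the sources used here. ZNF549 and ZNF550 overlap on opposite strands, and ZNF552 overlaps ZNF586, which was not called (0.12, adjusted p = 0.652). Of the 31-base words of ZNF417, 54.2% also occur in transcripts of other genes, as do 26.3% of those of ZNF552 and 17.2% of those of ZNF17.

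The cluster at 43525497 to 44500524 of chromosome 19 (19I) had the highest median of the 22 clusters with at least 3 of the genes. Here 6 of 10 ZNF genes were higher and 0 lower, with a median log2 fold change of 0.49 (0.40 without replicate 1). The 9 genes without a zinc-finger symbol inside the interval had a median of -0.05 and 0 calls (2 lower with the replicate block). The 35 such genes within 1000 kb of ZNF227, a wider window, had a median of 0.21, with 3 called higher and 0 lower (8 and 3 with the replicate block).

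ZNF227 (ENSG00000131115, 44207547 to 44237268, plus strand), a KRAB gene with 18 fingers, had 16.8, 18.3 and 14.7 CPM in DKD with TNFα, against 9.29, 12.2 and 10.8 CPM in CTL with TNFα. Untreated libraries had 16.4, 14.1 and 14.3 CPM in DKD, against 9.34, 7.88 and 8.57 CPM in CTL. The groups did not overlap, and the averaged log2 fold change was 0.71 (SE 0.098, adjusted p = 0.000636). It overlaps ZNF235 on the other strand, which was also called higher (0.72, adjusted p = 0.0133).

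ZNF230 (ENSG00000159882, 44002948 to 44013926, plus strand), a KRAB gene with 7 fingers, had 12.3, 8.94 and 8.85 CPM in DKD with TNFα, against 6.10, 5.65 and 4.99 CPM in CTL with TNFα. In untreated cells it had 16.3, 11.5 and 9.77 CPM in DKD, against 7.54, 6.44 and 6.12 CPM in CTL. Replicate 1 was the highest in each of these groups, and the groups did not overlap. Its averaged log2 fold change was 0.87 (SE 0.15, adjusted p = 0.00214). ZNF224 (0.63), ZNF45 (0.54), ZNF226 (0.54) and ZNF283 (0.44) made up the other called genes of the cluster.

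**Figure D2:**
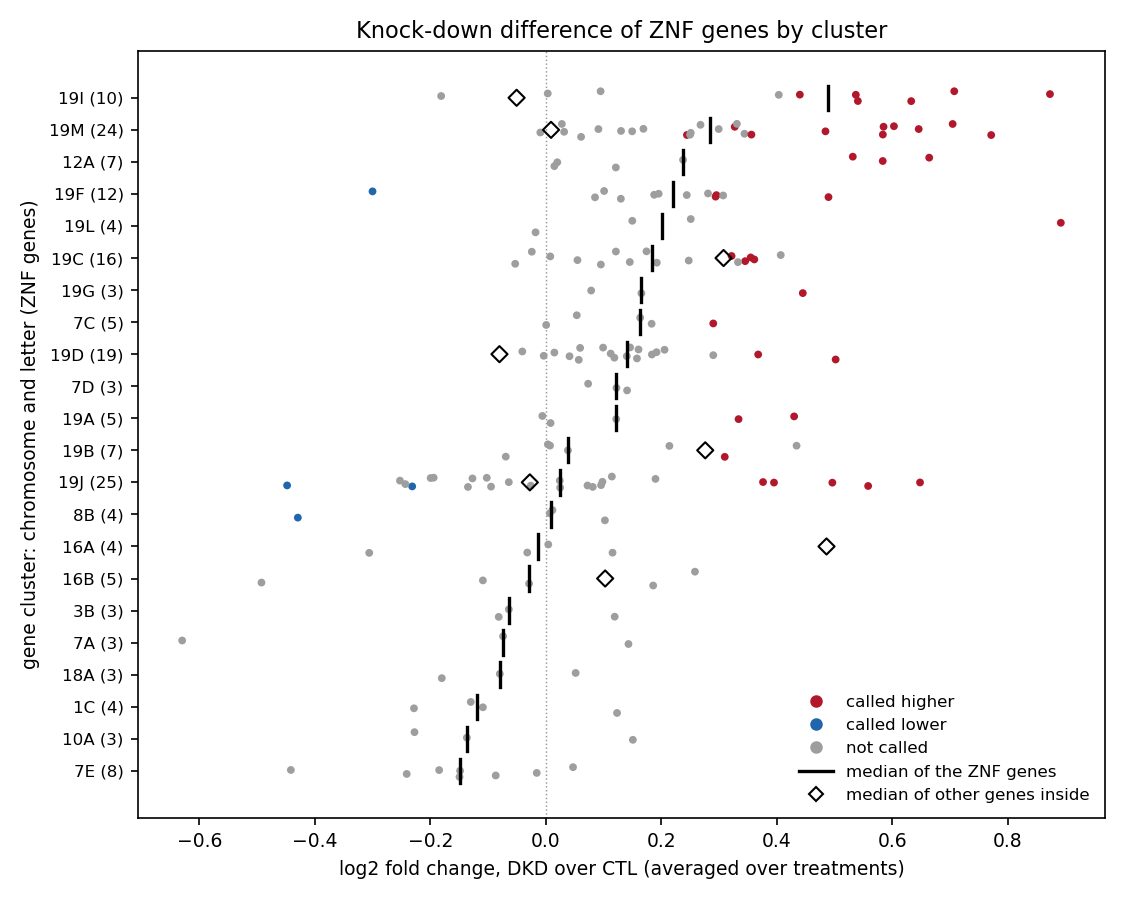
Log2 fold change of DKD over CTL, averaged over treatments (x axis), for the ZNF genes of each cluster with at least 3 of them (y axis, chromosome and letter, number of genes in brackets). Red points were called higher, blue lower and grey neither; black lines are cluster medians, and diamonds are medians of at least 4 genes without a zinc-finger symbol inside the interval. Medians run from -0.15 in 7E to 0.49 in 19I.

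At the end of chromosome 12 (132918308 to 133214831, 12A), 3 of 7 ZNF genes were higher, 0 were lower and all 7 fold changes were above 0, with a median of 0.24 (0.11 without replicate 1). ZNF140 (ENSG00000196387, 133079838 to 133107544, plus strand), a KRAB gene, had 14.2, 18.04 and 16.9 CPM in DKD with TNFα, against 9.51, 11.9 and 11.2 CPM in CTL with TNFα. Without TNFα its levels were 14.04, 14.01 and 13.1 CPM in DKD, against 7.44, 8.43 and 8.81 CPM in CTL. The groups did not overlap, and the averaged log2 fold change was 0.66 (SE 0.093, adjusted p = 0.000674). Its partner on the other strand, ZNF891, was not called (0.12, adjusted p = 0.768). ZNF268 (0.58) and ZNF605 (0.53) were the other 2 called genes, and the 11 genes without a zinc-finger symbol within 1000 kb of ZNF140 had a median of -0.08 and 0 calls (0 higher and 3 lower with the replicate block).

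The cluster at 51571298 to 53580269 of chromosome 19 (19J) held both directions. Of its 25 ZNF genes, 5 were higher and 2 lower, with a median log2 fold change of 0.02 (-0.10 without replicate 1, where 5 were higher and 10 lower; with the replicate block 5 were higher and 4 lower). The 5 higher genes were ZNF615 (0.65), ZNF614 (0.56), ZNF649 (0.50), ZNF841 (0.40) and ZNF616 (0.38). The 2 lower ones, ZNF28 and ZNF761, start further along the chromosome, at 52797409 and 53431993, whereas ZNF649, ZNF615 and ZNF614 start between 51889224 and 52012765, an order that was seen after the values were known.

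ZNF28 (ENSG00000198538, minus strand), a KRAB gene with 15 fingers, had 10.8, 10.5 and 8.65 CPM in DKD with TNFα, against 13.2, 14.7 and 12.9 CPM in CTL with TNFα. Untreated libraries had 10.3, 8.59 and 7.63 CPM in DKD, against 12.2, 12.2 and 11.7 CPM in CTL. Every knock-down library lay below every control library, and the averaged log2 fold change was -0.45 (SE 0.097, adjusted p = 0.010). Of its 31-base words 21.1% occur in other genes, as do 26.0% of those of ZNF761 (-0.23, SE 0.065, adjusted p = 0.0371).

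Other clusters had smaller medians. Of all genes tested, 8.49% were called higher, and 13.7% without replicate 1. In 19F (36182060 to 37817300), 3 of 12 genes were higher and 1 lower (median log2 fold change 0.22, and 1 higher without replicate 1), and in 19C (11483427 to 12640098) 4 of 16 were higher and 0 lower (median 0.18, and 1 higher without replicate 1). The 6 genes without a zinc-finger symbol inside 19C had a median of 0.31, above that of its ZNF genes. The large pericentromeric cluster 19D (19668796 to 23945159) had 2 of 19 higher, close to the share of all genes, and 0 lower. It had 17 fold changes above 0 and a median of 0.14. It holds ZNF91, which is known to repress SVA elements, at 0.19 (SE 0.091, adjusted p = 0.203), which was called with the replicate block (0.18, adjusted p = 0.0323). In 7E (chromosome 7, 149069643 to 149867479), 0 of 8 genes were called (1 lower with the replicate block) and the median was -0.15. The block also gave 5 higher and 1 lower in 19F, 6 and 0 in 19C, and 4 and 0 in 19D. Shares over all genes with the block were 15.8% higher and 15.4% lower.

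On chromosome 2 the other genes had a median close to that of the ZNF genes. There 3 of 6 were higher (ZNF385B, ZNF2 and ZNF514), and the 1002 other genes tested on the chromosome had 312 higher (31.1%), 29 lower and a median log2 fold change of 0.25, beside the ZNF median of 0.24. ZNF385B (1.07, SE 0.21, adjusted p = 0.00617) was the largest change of the family, and the 7 genes around it had a median of 0.10. The pseudogene ZNF542P, in cluster 19L, followed at 0.89 (SE 0.12, adjusted p = 0.000656), and it overlaps ZSCAN5A, which was not called (0.02, adjusted p = 0.931). ZNF542P had 13.5, 12.8 and 10.8 CPM in DKD with TNFα against 6.80, 8.09 and 7.32 CPM in CTL with TNFα, and 17.6, 12.2 and 11.3 CPM in DKD untreated against 6.59, 7.21 and 6.17 CPM in CTL untreated. The lines did not overlap. Outside chromosomes 2, 12 and 19, the genes called higher were ZNF594 on chromosome 17 (0.44), ZNF189 on chromosome 9 (0.41) and ZNF138 on chromosome 7 (0.29).

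Of the 7 genes that were lower in knock-down cells, 5 had no KRAB match. ZNF511 (ENSG00000198546, chromosome 10, 133308475 to 133313162, plus strand) had 24.9, 20.01 and 22.97 CPM in DKD with TNFα, against 32.3, 29.2 and 34.3 CPM in CTL with TNFα. In untreated cells it had 27.7, 25.04 and 25.01 CPM in DKD, against 41.4, 36.6 and 35.8 CPM in CTL. No library of the lines overlapped within a treatment, and the averaged log2 fold change was -0.52 (SE 0.077, adjusted p = 0.00100). Its neighbourhood was lower too: TUBGCP2, which overlaps it on the other strand, stood at -0.51 (adjusted p = 0.00118), and the 14 genes within 1000 kb had a median of -0.47, with 6 called lower and 0 higher (10 and 1 with the replicate block).

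ZNF146 (ENSG00000167635, chromosome 19, 36214602 to 36238774, plus strand), a protein made almost only of fingers, was the most abundant gene called lower. It had 117, 135 and 131 CPM in DKD with TNFα, against 158, 173 and 156 CPM in CTL with TNFα. Without TNFα its levels were 122, 138 and 134 CPM in DKD, against 154, 161 and 155 CPM in CTL. All knock-down libraries were below all control libraries, and the averaged log2 fold change was -0.30 (SE 0.056, adjusted p = 0.00424). It lies inside cluster 19F, where the other 11 ZNF genes had fold changes above 0. It overlaps ZNF565 on the other strand, which was not called (0.19, adjusted p = 0.757).

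The other genes called lower were ZNF251 on chromosome 8 (-0.43), ZNF598 (-0.30, adjusted p = 0.0344) and ZNF609 (-0.19). ZNF598 is the ubiquitin ligase that marks collided ribosomes. It had 21.6, 22.5 and 27.4 CPM in DKD with TNFα, against 27.4, 28.5 and 32.7 CPM in CTL with TNFα. Untreated libraries had 25.7, 21.8 and 26.5 CPM in DKD, against 30.2, 30.5 and 29.9 CPM in CTL, so that the lines did not overlap in untreated cells and met at 27.4 CPM with TNFα.

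**Figure D3:**
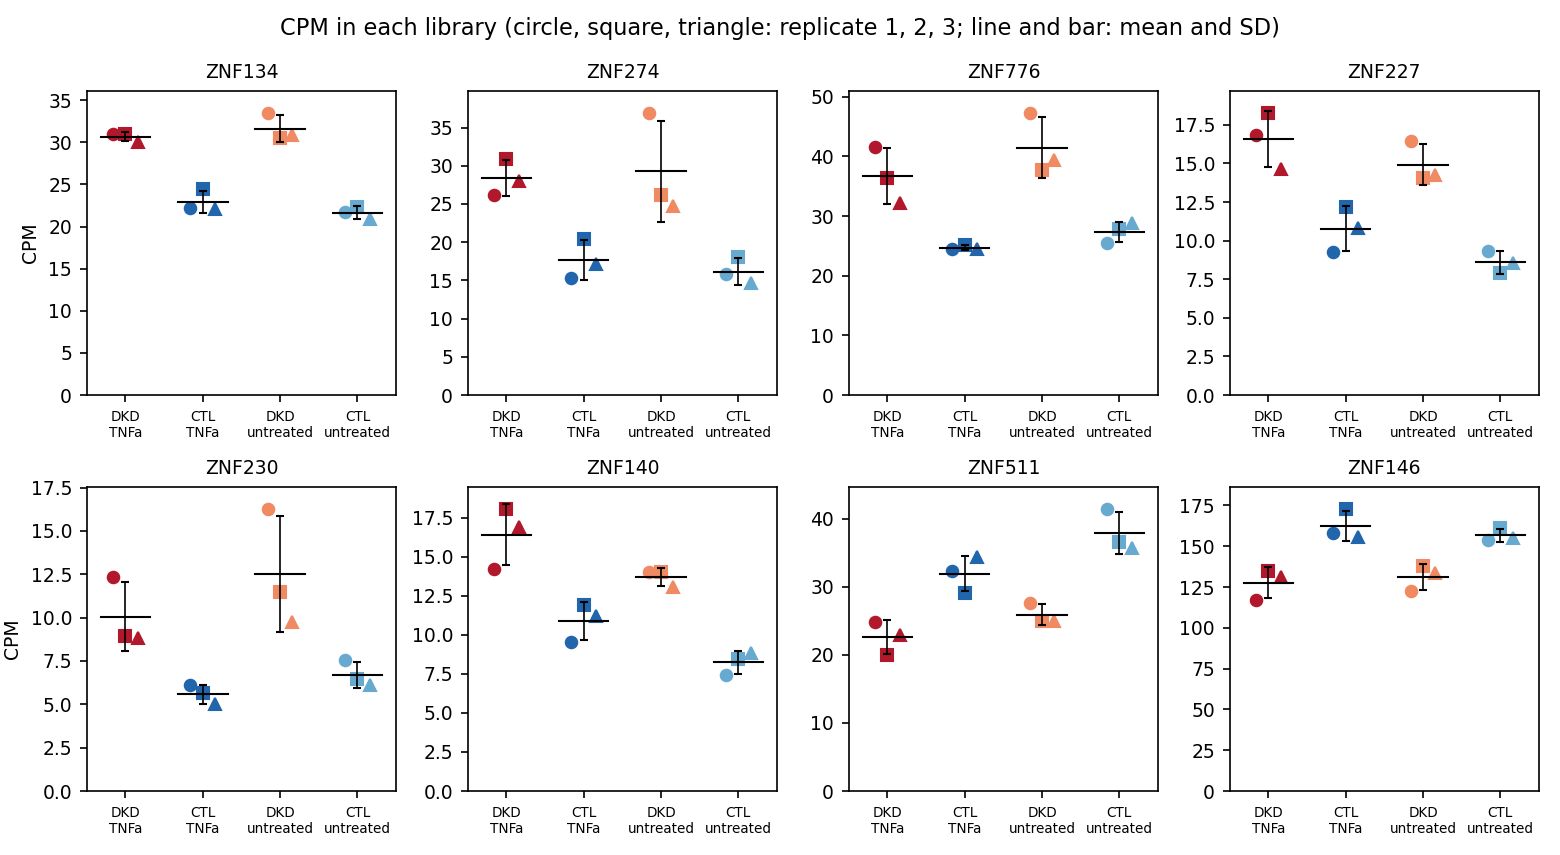
CPM (y axis, starting at 0) of 8 ZNF genes in each of the 12 libraries, by group (x axis: DKD and CTL with TNFα, then DKD and CTL untreated). Circles, squares and triangles are replicates 1, 2 and 3, and lines and bars are the group mean and SD (n = 3). In the first 6 genes every DKD library lies above the CTL libraries of the same treatment, and in ZNF511 and ZNF146 below them.

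The difference was next followed in each treatment, since these comparisons share no library. In untreated cells, 17 of the 296 genes were called higher and 1 lower in DKD, against 3.13% and 1.86% of all genes tested (18 genes, against 4.98%). With TNFα, 15 were higher and 2 lower, against 3.94% and 2.3% (17 genes, against 6.24%). The median log2 fold change was 0.09 without TNFα (0.01 over all genes) and 0.06 with it (0.00 over all genes). With the replicate block, the counts were 48 higher and 11 lower without TNFα (9.17% and 7.31% of all genes) and 40 and 12 with it (10.6% and 8.79%). Without replicate 1 of every group they were 27 higher and 9 lower without TNFα (7.16% and 5.13%) and 25 and 11 with it (8.58% and 6.14%).

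Of the 17 genes called higher without TNFα, 11 were also called higher with it: ZNF542P, ZNF230, ZNF274, ZNF227, ZNF140, ZNF550, ZNF552, ZNF615, ZNF776, ZNF134 and ZNF77. All 17 had fold changes above 0 with TNFα. The other 6, called without TNFα, were ZNF419, ZNF549, ZNF268, ZNF226, ZNF45 and ZNF382, and ZNF385B, ZNF605, ZNF649 and ZNF780B were called higher with TNFα alone. ZNF511 was called lower in both, and ZNF146 with TNFα. With the replicate block, ZNF419, ZNF268, ZNF226 and ZNF45 were also called higher with TNFα, ZNF385B, ZNF605, ZNF649 and ZNF780B also without it, and ZNF146 was also called lower without it. Across the 296 genes the fold changes of the 2 comparisons had a Pearson correlation of 0.892, and 247 had the same sign. Across all 16118 genes, which were not held to a mean of at least 300 counts, the correlation was 0.674. Genes are not independent replicates, and each line contributes its own libraries to both values.

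**Figure D4:**
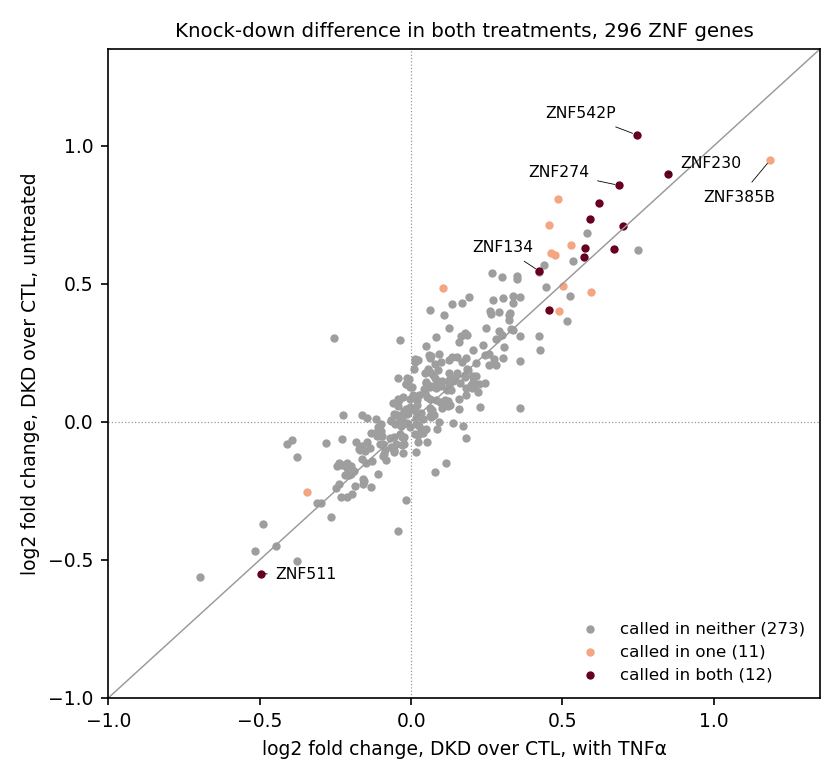
Log2 fold change of DKD over CTL with TNFα (x axis) and untreated (y axis) for the 296 ZNF genes (points), with the line of equal values. Dark red points were called in both comparisons (12), light ones in 1 (11) and grey ones in neither (273); most named genes lie near the line, with ZNF542P and ZNF274 above it and ZNF385B below it.

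Without TNFα, the 3 DKD libraries lay above the 3 CTL libraries in 66 genes (22.3%, against 11.3% of all genes tested) and below them in 12 (4.05%, against 10.4%). With TNFα the counts were 55 above (18.6%, against 13.2%) and 17 below (5.74%, against 12.1%). The shift was carried unevenly by the libraries. For each library, the deviation of the chromosome 19 ZNF genes from their mean over the 12 libraries was taken, and its median was 0.05 to 0.34 in DKD untreated and -0.08 to -0.07 in CTL untreated, on the log2 scale. DKD untreated replicate 1 was the highest of all libraries. With TNFα it was -0.04 to 0.13 in DKD and -0.14 to -0.04 in CTL, and DKD replicate 3 (-0.044) fell below CTL replicate 2 (-0.036).

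Removing single libraries moved the counts per treatment. Without TNFα, leaving out a CTL untreated library gave 7, 8 and 7 called genes (replicates 1, 2 and 3) in place of 18, and leaving out DKD untreated replicate 2 gave 11. With TNFα, leaving out CTL replicate 1 or 3 gave 0 in place of 17, CTL replicate 2 gave 6, and DKD replicates 1 and 2 gave 4 and 5. Leaving out CTL untreated replicate 3 gave 11, and DKD untreated replicate 1, which is in neither group of that comparison but enters the shared estimate of the spread, gave 33. The cause of these shifts was not tested. For the averaged comparison the count stayed between 35 and 55, against 51 with all libraries.

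Related families were described from lists of symbols, beside the 8.49% called higher and 6.04% called lower over all genes tested. Averaged over treatments, 0 of 17 tested ZSCAN genes were called (3 higher and 1 lower without replicate 1, and 3 and 0 with the replicate block). Of 7 ZKSCAN genes 1 was higher (14.3%; 2 with the block), of 38 ZBTB genes 0 were higher and 1 lower (2.63%; 2 and 5 with the block), and of 15 ZFP genes 2 were higher (13.3%; 3 higher and 1 lower with the block). The ZNF symbols below the threshold had 178 tested genes, of which 22 were higher (12.4%) and 6 lower (3.37%), with a median log2 fold change of 0.10 (0.02 without replicate 1).

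Of 27 genes for proteins that work with KRAB zinc fingers, 1 was higher (3.70%) and 3 were lower (11.1%) in DKD. Over all genes tested these shares were 8.49% and 6.04%. Only the share in either direction was close to that of all genes (14.5%). Fold changes were above 0 in 5 of the 27 (18.5%, against 51.2% of all genes tested). The median log2 fold change was -0.09. With the replicate block 2 were higher and 7 lower (15.8% and 15.4% of all genes), and without replicate 1 of every group 1 was higher and 7 were lower (13.7% and 11.7%). TRIM24, a relative of TRIM28, was higher (0.49, SE 0.11, adjusted p = 0.0121). HDAC2, a histone deacetylase (-0.36, SE 0.048, adjusted p = 0.000449), ATF7IP, the partner of SETDB1 (-0.34, SE 0.072, adjusted p = 0.00873), and CBX5, the HP1 alpha protein (-0.26, SE 0.063, adjusted p = 0.0170), were lower. TRIM28 itself stood at -0.24 (SE 0.16, adjusted p = 0.394), but was called lower with the replicate block (-0.26, adjusted p = 0.0117). SETDB1 was at -0.06 (SE 0.072, adjusted p = 0.681).

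TNFα changed few of the ZNF genes. In control cells 2 of the 296 were called higher with TNFα and 2 lower, against 1.9% and 0.726% of all genes tested (2.62% in either direction). In knock-down cells 2 were higher and 0 lower, against 1.54% and 0.254% (1.79%). Averaged over both lines 5 were higher and 8 lower, against 5.02% and 2.2% (7.22%). The median log2 fold change over the family was -0.01 in control cells, -0.05 in knock-down cells and -0.04 averaged, and that of all genes was -0.0046 for the average. With the replicate block the averaged counts were 14 and 35 (12.4% and 8.82% of all genes), those in control cells 9 and 11 (7.94% and 4.7%), and those in knock-down cells 6 and 9 (5.55% and 2.13%). The 3 treated DKD libraries lay above the 3 untreated ones in 11 genes (3.72%, against 7.03% of all genes) and below them in 18 (6.08%, against 5.25%). In CTL the counts were 21 above (7.10%, against 13.4%) and 32 below (10.8%, against 11.7%).

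ZNF641 (ENSG00000167528, chromosome 12, 48337180 to 48351414, minus strand), a gene with 5 fingers and no KRAB match, rose most. In DKD it had 29.6, 38.2 and 39.2 CPM with TNFα, against 18.9, 18.0 and 17.5 CPM untreated. In CTL it had 40.9, 53.0 and 48.4 CPM with TNFα, against 19.1, 20.1 and 18.3 CPM untreated. All treated libraries lay above all untreated ones, with a log2 fold change of 0.98 in DKD (SE 0.13, adjusted p = 0.00270) and 1.31 in CTL (SE 0.13, adjusted p = 0.000405).

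ZNF500 (ENSG00000103199, chromosome 16, 4748239 to 4767624, minus strand), which also has 5 fingers, was called higher in both lines as well. In DKD it had 14.2, 15.8 and 17.1 CPM with TNFα, against 8.80, 9.37 and 9.94 CPM untreated. In CTL it had 13.2, 15.7 and 16.1 CPM with TNFα, against 8.29, 9.49 and 9.98 CPM untreated. The treated and untreated libraries did not overlap, and the log2 fold changes were 0.75 in DKD (SE 0.13, adjusted p = 0.0126) and 0.70 in CTL (SE 0.13, adjusted p = 0.0157). Over the 12 libraries the ZNF genes whose level ran most like ZNF641 were ZNF500 (Pearson r = 0.924), ZNF664 (0.834) and ZNF160 (0.833).

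Averaged over both lines, ZNF160 (0.35), a KRAB gene, ZNF609 (0.23) and ZNF664 (0.22) were also called higher. ZNF664 had the highest level of the 296 genes per kilobase of longest transcript, at 45.6 CPM per kb, ahead of ZNF146 at 38.2 CPM per kb. It had 240, 258 and 248 CPM in DKD with TNFα, against 186, 222 and 218 CPM in DKD untreated. In CTL it had 255, 255 and 249 CPM with TNFα, against 219, 220.5 and 223 CPM untreated. The treated and untreated libraries did not overlap, although the change was small (adjusted p = 0.0245). It overlaps CCDC92 on the other strand, which was not called (0.15, adjusted p = 0.648).

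ZNF385B (ENSG00000144331, chromosome 2, 179441982 to 179861505, minus strand) fell most with TNFα, and it is also the gene with the largest rise in the knock-down. In DKD it had 47.6, 28.2 and 22.7 CPM with TNFα, against 106, 72.3 and 62.8 CPM untreated. In CTL it had 18.2, 13.5 and 11.6 CPM with TNFα, against 52.0, 37.8 and 35.2 CPM untreated. Within each line the treated libraries lay below the untreated ones, and replicate 1 was the highest in every group. The log2 fold change was -1.29 in DKD (SE 0.30, adjusted p = 0.0615) and -1.53 in CTL (SE 0.30, adjusted p = 0.0231), and with the replicate block the fall in DKD was called as well (-1.32, adjusted p = 2.52e-05).

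ZNF77 (ENSG00000175691, chromosome 19, 2933218 to 2944971, minus strand), a KRAB gene, likewise fell with TNFα and was higher in the knock-down. In DKD it had 20.5, 19.8 and 18.2 CPM with TNFα, against 25.7, 25.4 and 28.0 CPM untreated. In CTL it had 14.1, 14.1 and 14.4 CPM with TNFα, against 18.0, 20.8 and 20.9 CPM untreated. The log2 fold change with TNFα was -0.43 in DKD (SE 0.096, adjusted p = 0.0508) and -0.48 in CTL (SE 0.097, adjusted p = 0.0239), without overlap of groups in either line. The fall in DKD was called with the replicate block (adjusted p = 0.0127).

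**Figure D5:**
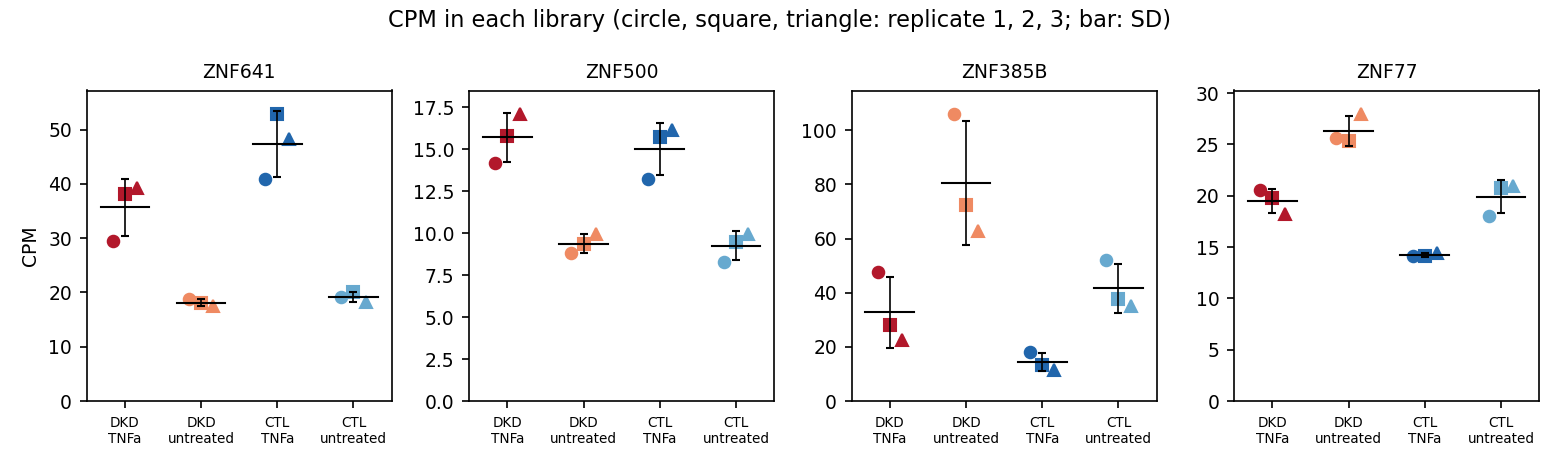
CPM (y axis, starting at 0) of ZNF641, ZNF500, ZNF385B and ZNF77 in each of the 12 libraries, by group (x axis: DKD with TNFα and untreated, then CTL with TNFα and untreated). Circles, squares and triangles are replicates 1, 2 and 3, and lines and bars are the group mean and SD (n = 3). ZNF641 and ZNF500 are higher with TNFα in both lines, ZNF385B and ZNF77 lower.

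The remaining genes called lower in the averaged comparison were ZNF331 (-0.53), ZNF107 (-0.45), ZNF57 (-0.34), ZNF138 (-0.33), ZNF92 (-0.29) and ZNF17 (-0.28), all with a KRAB match. ZNF107, ZNF138 and ZNF92 lie on chromosome 7 and ZNF57 beside ZNF77 on chromosome 19. Of the 27 genes on the cofactor list, 0 were called higher and 1 lower (3.70%), against 5.02% and 2.2% of all genes. With the replicate block 1 was higher and 4 were lower (12.4% and 8.82% of all genes). Without replicate 1 of every group 1 was higher and 10 were lower (12.9% and 11.5%). The gene called without the block was CHD3, a chromatin remodeller, which fell by 0.44 on the log2 scale (SE 0.062, adjusted p = 0.00140). Leaving out single libraries gave 7 to 19 called ZNF genes in place of 13. The count was 7 without DKD TNFα replicate 3 or CTL untreated replicate 1. It was 8 without any CTL TNFα library or CTL untreated replicate 3. In control cells the 4 calls fell to 1 or 2 without any untreated CTL library or without CTL TNFα replicate 2 or 3, and in knock-down cells the 2 calls fell to 1 without DKD TNFα replicate 2 or 3 or DKD untreated replicate 2.

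The TNFα response of the ZNF genes was not found to differ between the lines. For the interaction (the TNFα change in DKD minus the TNFα change in CTL), edgeR called 0 of the 296 and 0% of all genes, and DESeq2 called 0 of the 296 and 5 genes in all. At an unadjusted p under 0.05 there was 1 ZNF gene (0.338%), against 184 of all genes tested (1.14%). For the 296 genes the TNFα changes in DKD and in CTL, which share no library, correlated at 0.827 across genes. Across all genes tested, which were not held to the same level, it was 0.545.

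Of 14 ZNF genes with well known roles, most of them outside KRAB silencing, ZNF274 and ZNF598 were called in the averaged knock-down comparison and 0 in the averaged TNFα comparison. Over all genes tested, 14.5% and 7.22% were called in these comparisons, so the knock-down calls came at about the rate of all genes. In the fit with the replicate block, ZNF217 and ZNF148 (-0.25, adjusted p = 0.0158) were also called for the knock-down, and ZNF281 for TNFα (-0.19, adjusted p = 0.0125). That fit called 15.8% of all genes higher and 15.4% lower for the knock-down, and 12.4% and 8.82% for TNFα. ZNF207, a spindle assembly factor, had the highest CPM of the family: 294, 288 and 242 CPM in DKD with TNFα against 294, 299 and 252 CPM in CTL with TNFα, and 274, 280.5 and 267 CPM in DKD untreated against 262, 281 and 272 CPM in CTL untreated. The lines overlapped in both treatments, and the averaged log2 fold change was -0.01 (SE 0.063, adjusted p = 0.930). ZNF410, an activator of CHD4, stood at 0.02 (SE 0.053), ZNF451, a SUMO ligase, at 0.02 (SE 0.076), ZNF622, a ribosome assembly factor, at -0.03 (SE 0.11), and ZNF638, which acts in the silencing of retroviral DNA, at 0.08 (SE 0.084). None of these 4, nor ZNF207, was called in any comparison by edgeR, with or without the replicate block. Of the 31-base words of ZNF410, 87.1% occur in other genes.

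ZNF217, an oncogene that works in corepressor complexes, was set apart by replicate 1 within each group. It had 226, 119 and 108 CPM in DKD with TNFα against 112, 81.1 and 77.5 CPM in CTL with TNFα, and 246, 135 and 128 CPM in DKD untreated against 134, 99.6 and 96.9 CPM in CTL untreated. Replicate 1 was the highest in every group, and the averaged log2 fold change of 0.69 (SE 0.23) was not called (adjusted p = 0.0674), whereas with the replicate block it was (0.63, adjusted p = 0.000226). ZNF143, an activator of many housekeeping promoters, was split in the same way, with 46.4, 19.1 and 19.6 CPM in DKD with TNFα, 39.2, 18.8 and 18.3 CPM in CTL with TNFα, 65.4, 20.1 and 21.1 CPM in DKD untreated and 50.0, 19.1 and 17.9 CPM in CTL untreated. Its averaged log2 fold change was 0.22 (SE 0.41, adjusted p = 0.787).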

How the data were processed

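RNA-seq of HepG2 cells was analysed in 12 libraries, 3 in each of 4 groups taken from the titles. The authors deposited a table of counts per gene symbol, whole numbers as deposited, and a second table of a normalised signal. In each library this deposited signal equals the counts divided by 1 size factor, and it served only to choose the genes. Tools named in the submitters' processing notes are DESeq2, Salmon 0.14.0 and CASAVA 1.7, and the build is GRCh38/hg38. Which annotation and strand setting served is not given in the sources used here. The 296 genes and all lists were chosen with earlier results of these data known.

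CPM and tests were computed from the counts with edgeR 4.0.16 in R 4.3.3 (TMM factors, filterByExpr with a minimum count of 10 and a minimum total of 15, quasi-likelihood test, 1 mean per group, 8 residual degrees of freedom) with Benjamini-Hochberg adjustment over 16118 genes. Contrasts were DKD against CTL in each treatment, TNFα against untreated in each line, both averages and the interaction. The scripts were tested on simulated data. Alternatives were RLE size factors, DESeq2 1.42.0, no filter, the replicate block, the 2 groups compared alone, replicates 2 and 3 alone, and each library left out. Named genes were the 6 highest, the called genes of greatest change in each direction (at most 12 in a simple contrast and 6 in an average or the interaction), those around the threshold, those with well known roles, and called cofactors; other genes were added after their values were seen. Positions, transcript length, GC content and words of 31 bases come from GENCODE on GRCh38.

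Replicate numbers come from the titles. Same-numbered libraries deviated together in every comparison. For the knock-down, correlations over genes were 0.314 to 0.540 without TNFα and 0.262 to 0.506 with it. For TNFα they were 0.193 to 0.409 in control cells and 0.435 to 0.695 in knock-down cells. Libraries numbered 2 and 3 also correlated with each other, at 0.039 to 0.311, while number 1 correlated negatively with both. Deviations within a group sum to 0, so the negative values follow from the match of number 1. The values of numbers 2 and 3 partly reflect that match too. The numbers were taken to pair the libraries. Calls, SEs and adjusted p-values of the main fit ignore this pairing, and only the fit with the replicate block uses it. Replicates of a group always differed by more than counting noise (chi-square divided by its degrees of freedom, 8.97 to 99.7).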

Additional observations from a re-analysis of the deposited data

How the results depend on the processing

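Stability was followed for 56 calls, each of 1 gene in 1 comparison, those of greatest change in each comparison. Some genes, such as ZNF542P and ZNF230, therefore count more than once. Other calls named above, such as those of ZNF134 and of the cofactors, are not among the 56. Of the 56, 56 stayed called in the same direction with RLE size factors, with DESeq2 and with the replicate block. This says little about stability, since the calls were chosen as the strongest of the main fit. DESeq2 and the block also called more genes, 3139 and 5033 in the averaged knock-down comparison, against 2342. Without replicate 1, 55 of the 56 stayed called, and without a filter 46. With only the 2 groups compared, 12 of 33 stayed called. In the least favourable removal of 1 library 23 of 56 stayed called, and 0 changed sign under any alternative. The replicate block ended none of these 56 calls, and it added others, which stand beside the results above.

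Counts of called ZNF genes depended on the fit, and the cause was not tested. For the knock-down without TNFα the count was 18; it was 42 with DESeq2, 59 with the replicate block, 36 with replicates 2 and 3 only and 1 with the 2 groups compared alone. With TNFα it was 17, and 36, 52, 36 and 10 under the same alternatives. Averaged over treatments it was 51, and 94 with the block and 79 with replicates 2 and 3 only. For TNFα in control cells it was 4, and 12 (DESeq2), 20 (block) and 13 (replicates 2 and 3). In knock-down cells it was 2, and 8, 15 and 12, with 0 in the 2 groups alone. Averaged over lines it was 13, and 28, 49 and 45, with 8 without a filter. Removing 1 library gave 7 to 20, 0 to 33, 35 to 55, 1 to 4, 1 to 3 and 7 to 19 for these comparisons in the same order, and 0 to 0 for the interaction.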

Other observations

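Levels of single ZNF genes followed the replicate number in all 4 groups. Replicate 1 was above both other replicates in every group for 73 of the 296 genes (24.7%), against 18.2% of all genes tested, and below both for 56 (18.9%), against 18.6%. The genes with the widest gap, as the mean log2 difference of replicate 1 from the others, were ZNF341 (1.75) and ZNF143 (1.36) above, and ZNF70 (-1.08) and ZNF48 (-1.06) below. These genes were chosen after their values were seen.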
